A study of Mus musculus with 9 samples.

Results

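The ETS transcription factor genes Erg, Fli1, Fev, Ets1, Ets2, Etv1, Etv2, Etv4, Etv5 and Elk3 were followed across cell populations sorted from embryonic mouse knees. They were taken from the deposited table by gene symbol, with earlier results of these data known, and all 10 were found among its 54532 genes. RNA was sequenced as bulk libraries from cells of knees dissected at stage E14.5. Every embryo was heterozygous at a pair of reporter alleles, Creb5 3XHA-P2A-tdTomato, which tags Creb5 and gives red fluorescence (RFP), and Sox9 iresEGFP, which gives green fluorescence (GFP), so all populations carry both alleles. Cells were sorted as GFP-only (Sox9 reporter alone), double-positive (DP, both reporters) and RFP-only (Creb5 reporter alone). Each population has 3 libraries, from litters 1, 2 and 5, collected on separate days, and the sources used here do not give how many embryos a library pools.

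ETS factors share a winged helix-turn-helix domain that binds DNA around a GGAA core. Erg and Fli1 are close relatives with roles in endothelium and blood, and Erg is also expressed in developing joints, where it is known to favour a permanent, articular type of cartilage. Etv1, Etv4 and Etv5 form the PEA3 subfamily, whose transcription is a common readout of FGF signaling through ERK. Ets1 and Ets2 are activated by ERK phosphorylation, Elk3 is a ternary complex factor that acts with SRF, Etv2 starts the endothelial program in the embryo, and Fev is best known from serotonergic neurons.

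Values are the authors' normalized counts, and libraries held between 25199258 and 47079305 recovered reads. The reporter hosts matched the sort: Creb5 was at 138 to 274 normalized counts in GFP-only, 2754 to 3408 in DP and 2006 to 3531 in RFP-only libraries, and Sox9 was at 1091 to 1891 in RFP-only and 16565 to 37992 in the other libraries. All 18 cartilage genes examined were higher in DP cells than in RFP-only cells, as 1.80% of all tested genes were. Against GFP-only cells 10 of the 18 were lower in DP cells and none higher, where 3.02% of all tested genes were lower. Of the 10 ETS genes, 8 reached a mean of 10 normalized counts and were tested (limma, adjusted over 17764 genes), on 44 to 8509 reads per library. Etv2 and Fev fell under that filter.

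Counted together, 1 of the 8 tested ETS genes differed between DP and GFP-only cells (Etv1, higher), where 8.29% of all tested genes did, 5.27% higher and 3.02% lower in DP cells. Between RFP-only and GFP-only cells 4 of 8 differed (Ets1 and Etv4 higher, Erg and Fli1 lower), where 20.3% of all genes did. Fli1 and Elk3, 2 of 8, were higher in DP cells than in RFP-only cells, where 2.85% of all genes differed and 1.80% were higher. Values did not overlap for 2, 5 and 7 of the 8 in these comparisons, against 28.1%, 39.4% and 23.8% of all tested genes. The median log2 fold changes of the 8 were 0.44, -0.20 and 0.73, and those of all tested genes 0.04, 0.05 and -0.01. By limma no ETS gene was higher in DP cells against both other populations, as 0.236% of all tested genes were. By DESeq2 on the recovered reads Etv1 and Elk3 were. DESeq2 called more genes than limma in both comparisons, and its share of all tested genes was not counted. The comparisons share libraries, so their counts are not independent.

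**Figure D1:**
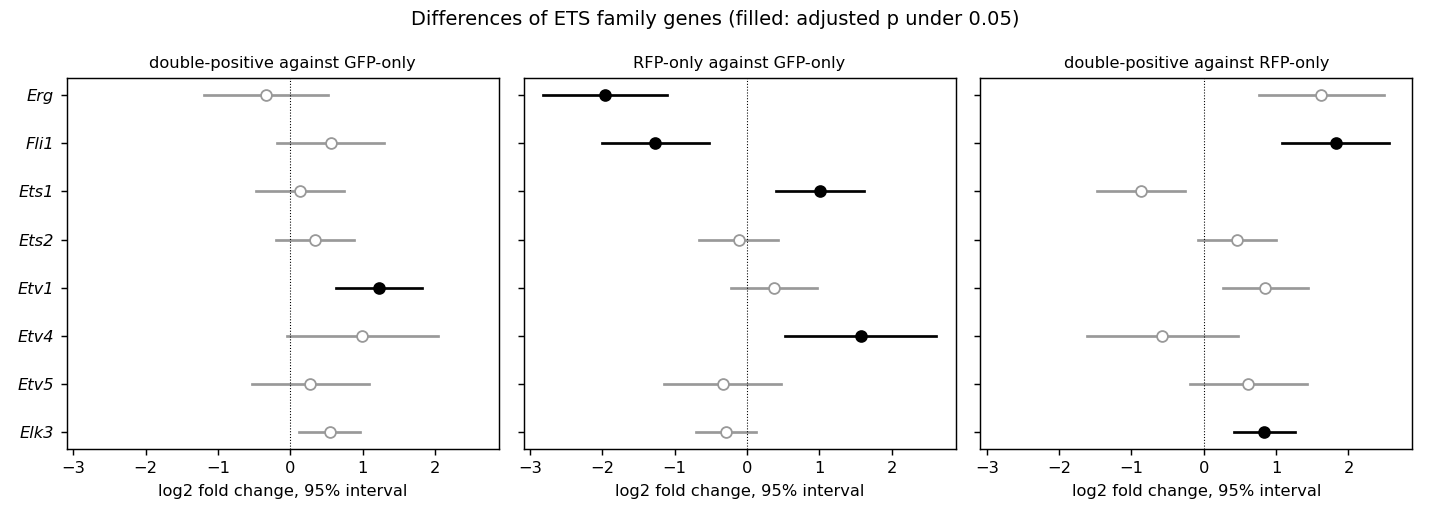
Log2 fold changes (horizontal axes) with 95% intervals from limma for the 8 tested ETS genes in 3 comparisons. Filled points passed an adjusted p of 0.05. Erg and Fli1 lie below 0 and Ets1 and Etv4 above it in RFP-only against GFP-only cells, Etv1 passes in DP against GFP-only, and Fli1 and Elk3 pass in DP against RFP-only cells.

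Erg was high in both populations with the Sox9 reporter and low in cells with the Creb5 reporter alone. In GFP-only libraries of litters 1, 2 and 5 it had 534, 439.5 and 486 normalized counts. DP libraries held 489, 250.3 and 464, and RFP-only libraries 92.9, 208 and 98. Every RFP-only value lay below every value of the other populations, while GFP-only and DP values overlapped. Erg was lower in RFP-only cells than in GFP-only cells by a log2 fold change of -1.96 ± 0.39 (SE, limma adjusted p = 0.00503), with log2 ratios within litters of -2.51, -1.07 and -2.30. This call held without any 1 of the 9 libraries (adjusted p 0.00357 to 0.0266). In bulk libraries, fewer cells with the RNA and less RNA per cell cannot be told apart.

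Between DP and RFP-only cells the Erg difference was 1.63 ± 0.39 and just missed the threshold (adjusted p = 0.0520), although the groups did not overlap and the sign held in all 3 litters. The DP and RFP-only libraries of litter 2 lay closest together, at 250.3 and 208. Without the litter 2 DP library the difference was 1.94 (adjusted p = 0.0359), without the litter 2 RFP-only library it was 2.00 (0.0342), and without the litter 5 GFP-only library it was 1.63 (0.0383). With litter as a random block it also passed (adjusted p = 0.0493), and with litter as a fixed block it did not (0.0836). DP and GFP-only cells differed by -0.33 ± 0.39 in Erg (adjusted p = 0.630), and the 95% interval of -1.19 to 0.52 spans changes in either direction.

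Erg (ENSMUSG00000040732) lies on the minus strand of chromosome 16, 95359169 to 95586593 (GRCm38), and RefSeq places 3 starts in it. Counts per gene do not tell which start the RNA came from, so all 3 windows (250 bases before to 50 after a start, RefSeq, GRCm38.p6, minus strand) are shown, for the gene whose lower level in RFP-only than GFP-only cells held under each alternative. Window 1 is chr16:95586544-95586843, window 2 chr16:95530316-95530615 and window 3 chr16:95459299-95459598. Capitals mark the SOX core ACAANG on either strand.
Erg window 1: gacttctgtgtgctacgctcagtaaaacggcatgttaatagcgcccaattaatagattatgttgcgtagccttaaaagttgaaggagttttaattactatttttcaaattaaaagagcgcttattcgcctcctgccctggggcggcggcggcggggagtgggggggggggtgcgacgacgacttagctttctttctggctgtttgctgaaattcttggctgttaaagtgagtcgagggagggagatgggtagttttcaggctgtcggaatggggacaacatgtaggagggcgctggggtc
Erg window 2: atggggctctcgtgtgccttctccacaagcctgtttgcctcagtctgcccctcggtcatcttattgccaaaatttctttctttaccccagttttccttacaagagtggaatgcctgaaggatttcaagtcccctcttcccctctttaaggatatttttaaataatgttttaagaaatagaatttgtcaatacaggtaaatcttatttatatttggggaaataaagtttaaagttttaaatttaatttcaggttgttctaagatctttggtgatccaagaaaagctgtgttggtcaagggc
Erg window 3: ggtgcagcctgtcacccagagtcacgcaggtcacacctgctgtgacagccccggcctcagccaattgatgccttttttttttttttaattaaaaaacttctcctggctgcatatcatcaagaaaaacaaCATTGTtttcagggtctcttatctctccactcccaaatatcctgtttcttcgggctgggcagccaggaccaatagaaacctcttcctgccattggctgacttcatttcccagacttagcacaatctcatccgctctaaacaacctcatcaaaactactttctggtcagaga
The SOX letters occur once, in window 3, and 41.2% of all 32851 promoter windows hold at least 1 match. Neither the CRE letters TGACGTCA, bound by CREB and ATF proteins, nor TGACTCA of AP-1 nor CCGGAAG of ETS proteins occurs in these windows on either strand, against 1.79%, 5.20% and 8.86% of all windows. Letters in such a window show neither binding nor its absence. GC content was 50.3%, 37.3% and 46.0%, and the median over all windows was 52.7%.

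Fli1, the closest relative of Erg among the 10, had a like pattern at a higher level. GFP-only libraries held 1829, 1795 and 838 normalized counts, DP libraries 2784, 1829.8 and 1730.2, and RFP-only libraries 709.9, 458 and 608. All RFP-only values lay below all others, and the litter 5 GFP-only library was the lowest of the other 6. Fli1 was lower in RFP-only cells than in GFP-only cells (log2 fold change -1.27 ± 0.34, adjusted p = 0.0219) and higher in DP cells than in RFP-only cells (1.83 ± 0.34, adjusted p = 0.0156). The difference of 0.56 ± 0.34 of DP from GFP-only cells did not pass (adjusted p = 0.327, 95% interval -0.18 to 1.30). Signs held in all 3 litters in each comparison.

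Both Fli1 calls were near the threshold. That against GFP-only cells was lost without the litter 1 or 2 GFP-only library or the litter 2 or 5 RFP-only library (adjusted p 0.0615 to 0.0840). That against DP cells was lost without the litter 1 DP library or the litter 2 or 5 RFP-only library (0.0588 to 0.0845). The direction of Fli1 did not turn under any of these. Fli1 (ENSMUSG00000016087, minus strand of chromosome 9, 32422204 to 32542861) contains other short annotated genes, none of which shares an exon base with it. Fev (ENSMUSG00000055197, minus strand of chromosome 1, 74881509 to 74885419), the other close relative of Erg, was almost unread, with 0 to 13 reads per library and 0 to 10.7 normalized counts, and with no filter on low values none of its comparisons passed (adjusted p 0.943 to 1).

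**Figure D2:**
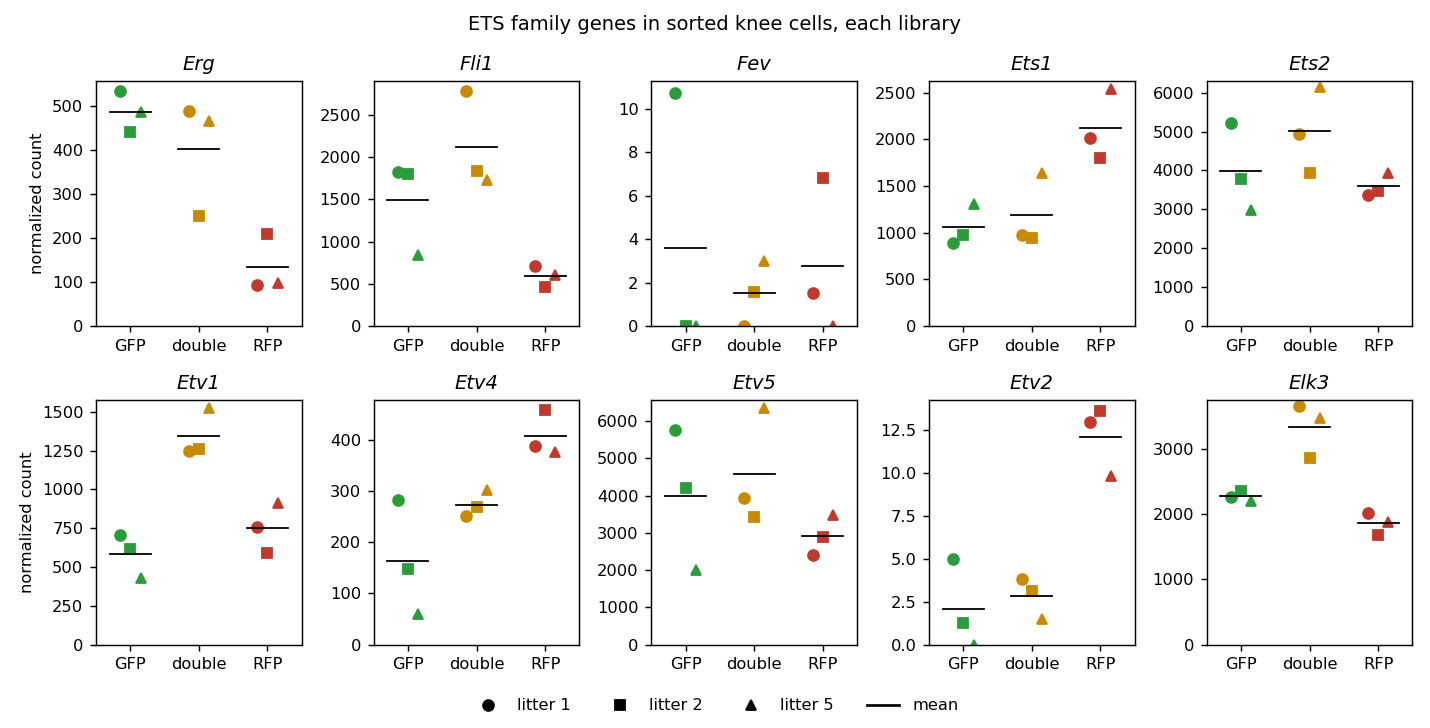
Normalized counts (vertical axes, linear from 0) of the 10 ETS genes in GFP-only, DP and RFP-only libraries. Each symbol is 1 library, with its shape giving the litter, and lines are means of 3. RFP-only libraries were lowest for Erg and Fli1 and highest for Ets1, Etv4 and Etv2, and DP libraries were highest for Etv1 and Elk3.

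Erg and Fli1 are also endothelial genes, so markers of endothelium were read beside them. The summed counts of 19 markers other than ETS genes were lowest in GFP-only cells, where Erg had its highest mean. The sum was 1799.6 to 3132 normalized counts in GFP-only, 2487 to 8757 in DP and 7392 to 9388 in RFP-only libraries. In RFP-only against GFP-only cells 12 of the 19 markers rose and none fell (7 did not pass, median log2 fold change 2.24, median of all tested genes 0.05). The angiopoietin receptor gene Tek rose by 4.91 ± 0.78 (adjusted p = 0.00136), Mmrn2 by 3.58 ± 0.77 and the VEGF receptor gene Kdr by 4.16 ± 0.92, in a comparison where 11.8% of all tested genes rose and 8.48% fell. Of the defining markers, Pecam1 had 96.3 to 297 normalized counts in GFP-only and 346 to 602 in RFP-only libraries. Cdh5, which encodes the cadherin of endothelial junctions, had 14.1 to 100.4 in GFP-only and 178 to 239 in RFP-only libraries. Egfl7, also among the 19, went the other way by mean, although its populations overlapped. It averaged 896 normalized counts in GFP-only cells, 654 in DP cells and 731 in RFP-only cells. Tek and Kdr averaged 69.1 and 99.6 in GFP-only cells, against 1435 and 1121 in RFP-only cells. No marker was at 0 in any RFP-only or DP library, and 2 were at 0 in the litter 5 GFP-only library.

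Per 100 normalized counts of the endothelial sum, Erg had 29.7, 14 and 17.3 in GFP-only libraries of litters 1, 2 and 5. DP libraries had 19.7, 2.86 and 7.96, and RFP-only libraries 1.26, 2.22 and 1.22. The RFP-only values did not overlap those of either other population (two-sided exact permutation p = 0.1 in both, the smallest that 3 against 3 allows, 0.136 adjusted over 15 ratio tests). The same index for Fli1 was 29.8 to 101.7 in GFP-only, 20.9 to 112 in DP and 4.87 to 9.60 in RFP-only libraries. Its p was the same in both comparisons. Against GFP-only cells neither test could come out otherwise, since each gene was lower and the sum higher in every RFP-only library. Both indices divide by a sum whose largest part by mean was Egfl7 in GFP-only cells but Tek in RFP-only cells. They thus weigh different genes by population. The litter 2 DP library, the lowest of its population in Erg, had the highest endothelial sum of it. In DP against GFP-only cells 2 of the 19 markers rose (Tek and Esam, adjusted p = 0.0452 and 0.0481) and 17 did not pass, where 5.27% of all tested genes rose. None of the 19 passed between DP and RFP-only cells (median -0.58, all tested genes -0.01), where 2.85% of all tested genes did. With so small a share, the lack of calls does not show that the markers were alike. How much of the Erg and Fli1 RNA came from endothelial cells was not tested.

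**Figure D3:**
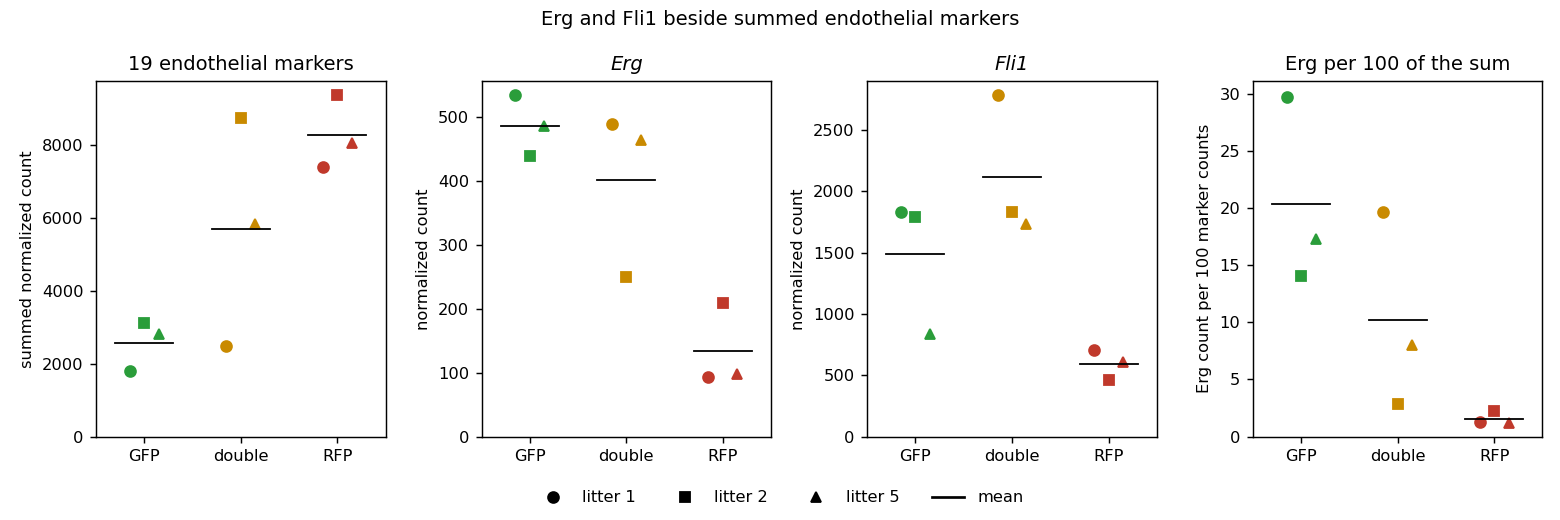
Summed normalized counts of 19 endothelial markers, normalized counts of Erg and Fli1, and Erg per 100 counts of that sum (vertical axes, linear from 0) in each library by population. Symbols give litters and lines means of 3. Within each litter the marker sum is highest in the RFP-only library (7392 to 9388), where Erg and Fli1 are lowest.

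Ets1 went the other way from its neighbor Fli1. Its values were 890.3, 973 and 1308 normalized counts in GFP-only, 970.4, 943 and 1643 in DP and 2018, 1800.6 and 2541 in RFP-only libraries. RFP-only values lay above all others, and litter 5 was highest within every population. Ets1 was higher in RFP-only cells than in GFP-only cells (1.01 ± 0.28, adjusted p = 0.0249). The call was lost without the litter 1 or 2 GFP-only library or the litter 1 or 5 RFP-only library (adjusted p 0.0591 to 0.107). DP cells did not differ from GFP-only cells by more than the spread (0.14 ± 0.28, adjusted p = 0.795), and the difference from RFP-only cells (-0.87 ± 0.28, adjusted p = 0.143) did not pass although the groups did not overlap.

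Ets1 (ENSMUSG00000032035, plus strand of chromosome 9, 32636221 to 32757820) starts 93.4 kb from the start of Fli1, with no protein-coding gene between, and both are transcribed away from the gap. The ratio of Fli1 to Ets1, each per kb of exon, was 5.00, 4.48 and 1.56 in GFP-only libraries of litters 1, 2 and 5. It was 6.98, 4.72 and 2.56 in DP and 0.855, 0.618 and 0.581 in RFP-only libraries. Fli1 was thus the more abundant per length in all 6 libraries with the Sox9 reporter, and Ets1 in all 3 RFP-only libraries. The RFP-only ratios did not overlap the others (two-sided exact permutation p = 0.1 against each, the smallest possible, 0.136 adjusted). This test could not come out otherwise, since Fli1 was lower and Ets1 higher in every RFP-only library than in all others. It adds nothing to the values of the genes.

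The other such pair, Erg and Ets2 on chromosome 16, has starts 115.5 kb apart with no protein-coding gene between. Ets2 (ENSMUSG00000022895, plus strand, 95702075 to 95721051) was abundant everywhere, at 5216, 3788 and 2971 normalized counts in GFP-only, 4942, 3936 and 6141 in DP and 3363, 3475 and 3934 in RFP-only libraries. No comparison of Ets2 passed. Its log2 differences were 0.34 ± 0.25 for DP against GFP-only cells (95% interval -0.20 to 0.88), -0.12 ± 0.25 for RFP-only against GFP-only (-0.66 to 0.43) and 0.46 ± 0.25 for DP against RFP-only (-0.08 to 1.00). Values did not overlap in the last of these, by the small step from 3934 to 3936. The ratio of Erg to Ets2 per kb of exon was 0.171 to 0.273 in GFP-only, 0.106 to 0.165 in DP and 0.0415 to 0.1 in RFP-only libraries, in that order without overlap (exact permutation p = 0.1 for each pair of populations, 0.136 adjusted).

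**Figure D4:**
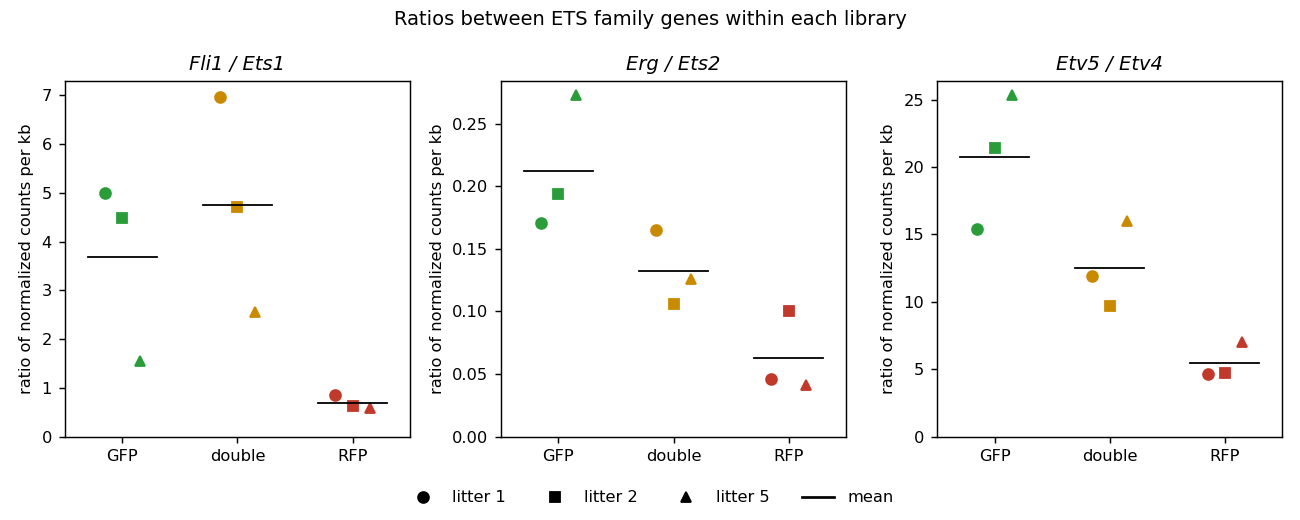
Ratios of normalized counts per kb of exon (vertical axes, linear from 0) of Fli1 to Ets1, Erg to Ets2 and Etv5 to Etv4 in each library by population. Symbols give litters and lines means of 3. RFP-only libraries are lowest in each ratio, and their Fli1 to Ets1 ratio lies under 1 (0.581 to 0.855).

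Among the PEA3 genes, Etv1 was highest in DP cells. It had 708, 618 and 426 normalized counts in GFP-only, 1250.0, 1259 and 1525 in DP and 756, 590.0 and 914 in RFP-only libraries. All 3 DP values lay above all 6 others, a pattern that 2.52% of tested genes shared. Etv1 was higher in DP than in GFP-only cells (1.23 ± 0.27, adjusted p = 0.0191), with log2 ratios within litters of 0.82, 1.02 and 1.84. Against RFP-only cells the difference of 0.85 ± 0.27 did not pass in limma (adjusted p = 0.143) and passed in DESeq2 (0.84, adjusted p = 0.0446) and without the litter 5 GFP-only library (0.0377). The call against GFP-only cells was lost without any 1 of the DP libraries (adjusted p 0.0528 to 0.0670) and in a fit of these 2 populations alone (0.0522).

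Etv1 (ENSMUSG00000004151, plus strand of chromosome 12, 38779380 to 38870484) has a pair of RefSeq start windows, shown because it stood highest in DP cells. They are chr12:38779832-38780131 and chr12:38783461-38783760 (plus strand, GRCm38.p6), and capitals again mark ACAANG on either strand.
Etv1 window 1: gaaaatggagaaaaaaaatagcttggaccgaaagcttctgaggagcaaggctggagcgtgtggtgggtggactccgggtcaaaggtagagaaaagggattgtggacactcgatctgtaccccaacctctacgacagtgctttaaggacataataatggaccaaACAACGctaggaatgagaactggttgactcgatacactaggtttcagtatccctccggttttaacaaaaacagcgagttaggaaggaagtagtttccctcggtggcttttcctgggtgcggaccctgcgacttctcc
Etv1 window 2: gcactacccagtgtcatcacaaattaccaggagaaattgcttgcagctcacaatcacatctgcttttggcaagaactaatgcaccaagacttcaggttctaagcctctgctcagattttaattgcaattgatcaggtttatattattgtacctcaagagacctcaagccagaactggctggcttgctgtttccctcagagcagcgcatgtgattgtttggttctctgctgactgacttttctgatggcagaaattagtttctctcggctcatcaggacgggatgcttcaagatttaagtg
The SOX letters occur once, in window 1, and none of the other motifs searched is in either window.

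Etv4 (ENSMUSG00000017724, minus strand of chromosome 11, 101769742 to 101785371) was ordered otherwise, with its lowest values in GFP-only and its highest in RFP-only cells. It had 283, 148 and 59.7 normalized counts in GFP-only, 251, 268 and 301 in DP and 388, 459 and 375 in RFP-only libraries. RFP-only values did not overlap those of either other population, and the GFP-only libraries spread widely, from 59.7 in litter 5 to 283 in litter 1. Etv4 was higher in RFP-only cells than in GFP-only cells (1.57 ± 0.47, adjusted p = 0.0381). This call rested on the whole set of libraries, since it was lost on leaving out any 1 of 8 of them (all but the litter 1 GFP-only library, adjusted p 0.0535 to 0.108), and the difference was 0.98 without the litter 5 GFP-only library. It was also lost in edgeR (adjusted p = 0.0813). The other comparisons of Etv4 did not pass, at 1.00 ± 0.47 for DP against GFP-only (adjusted p = 0.220) and -0.57 ± 0.47 for DP against RFP-only cells (adjusted p = 0.763).

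Etv5 (ENSMUSG00000013089, minus strand of chromosome 16, 22381309 to 22439719), the most abundant of the 10 per length in each population, did not pass in any comparison. Its values were 5753, 4198 and 2001 normalized counts in GFP-only, 3939, 3433 and 6362 in DP and 2396, 2881 and 3466 in RFP-only libraries. The populations overlapped, and the log2 ratio of DP to GFP-only cells was -0.55 and -0.29 in litters 1 and 2 but 1.67 in litter 5. The 95% intervals were -0.53 to 1.08 for DP against GFP-only, -1.15 to 0.47 for RFP-only against GFP-only and -0.19 to 1.42 for DP against RFP-only cells. The ratio of Etv5 to Etv4 per kb of exon was 15.4 to 25.4 in GFP-only, 9.69 to 16.0 in DP and 4.67 to 6.99 in RFP-only libraries. RFP-only ratios lay below all others (exact permutation p = 0.1, 0.136 adjusted), while the first 2 populations overlapped (p = 0.2, 0.25 adjusted).

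Genes that commonly respond to FGF and ERK were read beside the PEA3 genes, in a list of 15 that includes Etv1, Etv4, Etv5 and Ets2. In RFP-only against GFP-only cells 7 rose and 8 did not pass (median log2 fold change 1.05, all tested genes 0.05), where 11.8% of all tested genes rose. Beside Etv4 these were the feedback inhibitor genes Spry1 (2.92 ± 0.32, adjusted p = 1.34e-04), Il17rd (2.09 ± 0.32) and Spry2 (1.49 ± 0.37) and 3 further genes. In DP against GFP-only cells Spry1 (1.63 ± 0.32, adjusted p = 0.0112) and Etv1 rose and 13 did not pass, where 5.27% of all tested genes rose. None of the 15 passed between DP and RFP-only cells, where 2.85% of all tested genes did. Of 13 FGF ligand and receptor genes, 6 rose and 3 fell in RFP-only against GFP-only cells, where 11.8% and 8.48% of all tested genes did. The ligand genes Fgf7 (2.52 ± 0.29) and Fgf10 (4.38 ± 0.58) were among those higher, and the receptor genes Fgfr3 (-5.49 ± 0.46), Fgfrl1 (-2.60 ± 0.26) and Fgfr2 (-2.27 ± 0.33) were lower in RFP-only cells. DP cells had 2 higher and 2 lower than GFP-only cells, where 5.27% and 3.02% of all tested genes were. Against RFP-only cells 3 were higher and 2 lower in DP cells, where 1.80% and 1.05% of all tested genes were.

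Elk3, a factor at much the same level in each GFP-only library, was highest in DP cells. It had 2263, 2352 and 2199 normalized counts in GFP-only, 3659, 2862 and 3476 in DP and 2016, 1679 and 1883 in RFP-only libraries. No population overlapped another. Elk3 was higher in DP cells than in RFP-only cells (0.84 ± 0.19, adjusted p = 0.0411), with log2 ratios of 0.86, 0.77 and 0.88 within litters. The adjusted p was 0.0581 with litter as a fixed block and 0.0574 with no filter on low values. It was 0.0515 to 0.190 on leaving out any 1 library other than the litter 5 GFP-only library, so the call rested on the whole set. Against GFP-only cells the DP difference was 0.55 ± 0.19 and did not pass in limma (adjusted p = 0.104), though it did in DESeq2 (adjusted p = 0.0296). RFP-only cells differed from GFP-only cells by -0.29 ± 0.19 (adjusted p = 0.302), and in both comparisons the sign was the same in all 3 litters.

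Elk3 (ENSMUSG00000008398, minus strand of chromosome 10, 93247414 to 93311135) shares 316 exon bases with Cdk17 on the opposite strand. Cdk17 had 961 to 2415 normalized counts, and since the sources used here do not give the strand setting of the counting, reads in that stretch cannot be told apart. The RefSeq start window of Elk3 is chr10:93311110-93311409 (minus strand, GRCm38.p6), shown as the second gene highest in DP cells.
Elk3 window 1: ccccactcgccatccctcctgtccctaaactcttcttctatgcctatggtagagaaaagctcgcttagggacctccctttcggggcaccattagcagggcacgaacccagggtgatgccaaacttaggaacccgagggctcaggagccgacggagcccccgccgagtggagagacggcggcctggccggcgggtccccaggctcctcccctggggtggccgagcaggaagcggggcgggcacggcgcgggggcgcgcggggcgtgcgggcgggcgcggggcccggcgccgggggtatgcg
It holds none of the 4 motifs, and its GC content of 71.3% is above the median of 52.7%. Over all members, 7 of 10 genes had RefSeq windows, 11 in number, of which 5 held the SOX letters and none the CRE, AP-1 or ETS letters.

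A list of 17 held genes of SRF, its cofactors and immediate-early genes, some of which ternary complex factors such as Elk3 regulate with SRF. None of the 17 passed between DP and either other population. Of all tested genes, 8.29% differed between DP and GFP-only and 2.85% between DP and RFP-only cells. In RFP-only against GFP-only cells the SRF cofactor gene Mrtfa rose (1.61 ± 0.41, adjusted p = 0.0187) and Klf2 fell (-1.56 ± 0.27, adjusted p = 0.00250). The other 15 did not pass, in a comparison where 11.8% of all tested genes rose and 8.48% fell.

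Etv2 (ENSMUSG00000006311, minus strand of chromosome 7, 30633616 to 30635852) was read at the edge of detection. GFP-only libraries of litters 1, 2 and 5 held 6, 1 and 0 reads, DP libraries 4, 4 and 2, and RFP-only libraries 17, 12 and 7. In normalized counts the RFP-only values of 9.80 to 13.6 lay above the 0 to 4.96 of the other 6 libraries. With no filter on low values the difference between RFP-only and GFP-only cells was 2.46 ± 0.84 and did not pass (adjusted p = 0.0942), and that between DP and RFP-only cells was -1.82 ± 0.84 (adjusted p = 0.501). The endothelial sum was also highest in RFP-only cells within each of the 3 litters (7392, 9388 and 8053), and the part of endothelial cells in the levels of Etv2, Ets1 and Etv4 was not tested.

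Set side by side per kb of exon, the 10 genes kept much of 1 order in all populations. In GFP-only cells the order by mean was Etv5 (971 ± 459 normalized counts per kb, SD, n = 3), Ets2 (691 ± 197), Elk3 (499 ± 16.8), Fli1 (427 ± 161), Erg (140.3 ± 13.6), Ets1 (125 ± 26.1), Etv4 (52.7 ± 36.2) and Etv1 (43.9 ± 10.8), with Fev and Etv2 at 2.22 and 1.97. Neighbors overlapped except Fli1 above Erg, Ets1 above Etv4 and Etv1 above Fev. In DP cells the same 4 genes led, from Etv5 at 1116 ± 382 to Fli1 at 607 ± 167, without a gap between neighbors. A gap followed to Ets1 (139.8 ± 46.8), Erg (116 ± 37.9), Etv1 (101 ± 11.8) and Etv4 (88.1 ± 8.27), which overlapped as neighbors.

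In RFP-only cells Etv5 (710 ± 131) and Ets2 (621 ± 52.3) overlapped at the top and Elk3 (409 ± 37.2) and Ets1 (250.1 ± 44.9) each stood apart. Fli1 (170 ± 36.4) overlapped Etv4 (131 ± 14.4), and Etv1 (56.7 ± 12.2) overlapped Erg (38.4 ± 18.8). Erg thus stood at the fifth place in GFP-only and the eighth in RFP-only cells. Lengths are the union of annotated exons, which is long for Etv1 (13296 bases), so that its level per length is lower where shorter transcripts are used.

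**Figure D5:**
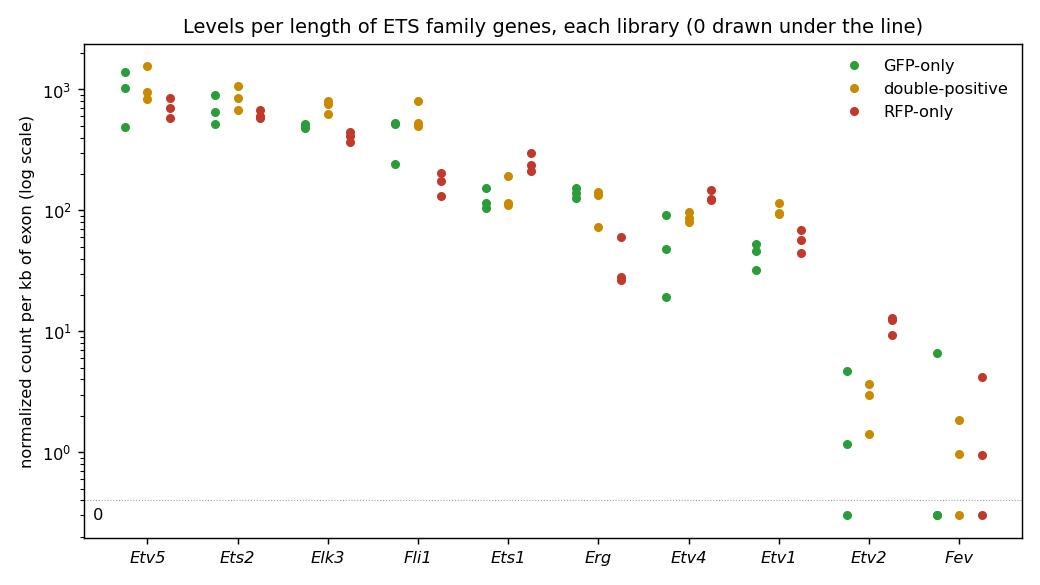
Normalized counts per kb of exon (vertical axis, log scale) of the 10 ETS genes in each library, colored by population and ordered by their mean. Values of 0 are drawn under the dotted line. Etv5, Ets2 and Elk3 lead in every population, and Erg falls from 127 to 154 in GFP-only to 26.8 to 60.1 in RFP-only libraries.

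The genes with the most similar profiles were sought among 11812 protein-coding genes with a mean of at least 100 normalized counts, by the root mean square difference of centered log2 values over the 9 libraries. For Erg these were Hk2, which encodes a hexokinase (0.25), Fam160a1 (0.30), Smpdl3b (0.31), Vill (0.34) and Cldn7 (0.36). Hk2 had means of 1722, 1291 and 612 normalized counts in GFP-only, DP and RFP-only cells. For Fli1 they were Rarg, a retinoic acid receptor gene (0.32), Pkdcc (0.32), Rragb, Zfp599 and Apobec3. For Etv1 they were Wdr91 (0.20), Fhl1 (0.22), Slc27a1, Pkp4 and Ldlrad4, and for Etv4 Zfp46 (0.19), Zfp319 (0.23), Acrbp, Map4k2 and Vash2. For Elk3 they were Stard10 (0.13), Gpc6 (0.14), which encodes a glypican, Cep70, Cdc25c and Cenpl. The libraries share depth and scaling, and these are descriptions with no test.

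Beyond these 10, the ETS family was covered by a list of 16 other genes, of which 11 were tested. Only Spi1, the ETS factor of myeloid cells, passed, and it passed in both comparisons with GFP-only cells. Of all tested genes, 8.29% differed in DP and 20.3% in RFP-only against GFP-only cells. Spi1 had 5.79, 3.67 and 0 normalized counts in GFP-only libraries of litters 1, 2 and 5. DP libraries held 136, 136 and 467 (log2 fold change 6.03 ± 0.79, limma adjusted p = 0.00166), and RFP-only libraries 144, 73.6 and 74.2 (4.88 ± 0.79, adjusted p = 0.00151). With a GFP-only mean of 3.15, Spi1 passed the filter of 10 only through the other populations. The size of its fold changes depends on the 1 added before the log. Of 16 blood and immune markers, 10 rose and 6 did not pass in DP against GFP-only cells, where 5.27% of all tested genes rose. In RFP-only against GFP-only cells 5 rose, where 11.8% of all tested genes did, and 11 did not pass. No marker was called lower in either comparison. The sum of the 16 markers was 1776 to 2822 in GFP-only, 4586 to 25454 in DP and 2376 to 6788 in RFP-only libraries, so that the RFP-only and GFP-only sums overlapped. Laptm5 alone had a higher mean in GFP-only than in RFP-only cells, at 912 to 1203 against 375 to 715, and weighs on that overlap. Csf1r, by contrast, had 1.65 to 31.2 in GFP-only and 277 to 798 in RFP-only libraries. At least 1 marker was at 0 in each GFP-only library and none elsewhere. Their part in the differences of Fli1 and Ets1, which blood cells also express, was not tested. Among 20 joint and articular progenitor genes, 11 rose and 2 fell in DP and 12 rose and 4 fell in RFP-only against GFP-only cells. Of all tested genes, 5.27% rose and 3.02% fell in DP and 11.8% rose and 8.48% fell in RFP-only against GFP-only cells. Osr2, a zinc finger gene of the joint interzone, rose by 4.45 ± 0.35 and 4.13 ± 0.35, and Sfrp2, which encodes a secreted Wnt antagonist, by 3.52 ± 0.27 and 2.69 ± 0.27. Nog and Wnt4, joint genes too, went the other way by mean. Nog averaged 4404 normalized counts in GFP-only, 1410.5 in DP and 484 in RFP-only libraries. Wnt4 averaged 4256, 1118 and 783 in that order. Of the same 20 genes 5 rose and none fell in DP against RFP-only cells, where 1.80% of all tested genes rose and 1.05% fell. Among the 5 were Barx1 (4.83 ± 0.35), Gdf5 (4.60 ± 0.58) and Pthlh (2.34 ± 0.30).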

How the data were processed

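Polyadenylated RNA of sorted knee cells was sequenced as bulk libraries made with the Nextera XT kit, as the labels' protocols say. Tools named in the submitters' processing notes, without versions or roles, are STAR, Salmon, FastQC and DESeq2, and the build is mm10. The deposited values are a normalized signal per gene, and they behave as read counts divided by 1 factor per library. The authors' scaling is not described further in the labels. Dividing by the smallest value of a library gave whole reads for 100% of genes, to within 0.001 of a read, and these reads were used for edgeR 4.0.16 and DESeq2 1.42.0. edgeR called 1236 genes between DP and GFP-only cells, 3191 between RFP-only and GFP-only cells and 411 between DP and RFP-only cells.

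Symbols, exon lengths and 1-based coordinates came from GENCODE M21 (GRCm38, which mm10 names). Of 54532 identifiers 54495 matched. Promoter windows came from RefSeq (GRCm38.p6).

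Two-sided tests used limma 3.58.1 (R 4.3.3), with its prior following the mean, on values of log2(normalized count + 1), a scale that understates changes of low genes, with all 9 libraries sharing 1 estimate of the spread and adjustment by Benjamini and Hochberg over the 17764 genes with a mean of at least 10. Calls are adjusted p under 0.05. Scripts were tested on simulated data. Members, lists and ratios were chosen with earlier results of these data known. Named beside the members are up to 3 passing genes per list and direction, and the 5 genes nearest in profile to Erg, Fli1, Etv1, Etv4 and Elk3.

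The labels give the replicate numbers as litters, so they pair libraries. Deviations from population means correlated with a median of 0.103 over 9 pairs within litters (-0.0353 to 0.149). Across litters the median was -0.0409 over 18 pairs (-0.146 to 0.0915), so the ranges overlapped. The consensus correlation within litters was 0.0169. Between replicates the counts differed beyond sampling noise, with a chi-square of at least 42.5 per degree of freedom. Alternatives changed the pseudocount, filter, scaling, block, populations fitted and tool, or left out each library.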

Additional observations from a re-analysis of the deposited data

How the results depend on the processing

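The lower level of Erg in RFP-only against GFP-only cells kept its direction and its call under every alternative run. On leaving out each library in turn it ranged from -2.33 to -1.75, and the DP against GFP-only value from -0.51 to -0.03 with no call. The Erg difference of DP against RFP-only cells passed with a pseudocount of 5 (1.59, adjusted p = 0.0455), quantile normalization (1.69, 0.0392), a filter at a mean of 50 (1.63, 0.0458), a random replicate block (1.63, 0.0493) and DESeq2 (1.59, 0.00317). It missed with a fixed block (0.0836), in edgeR (0.0692) and in the remaining alternatives, and leaving out each library gave 1.42 to 2.00 (0.0342 to 0.214). The number of genes differing between DP and GFP-only cells was 1472, 697 in a fit of those 2 populations and 2780 in DESeq2, and 637 to 1553 without 1 library. Between RFP-only and GFP-only cells it was 3601, and 2190 to 3716 without 1 library. Between DP and RFP-only cells it was 506, 1008 in a fit of those 2 populations and 1152 in DESeq2, and 217 to 1050 without 1 library. In the same order, 1, 4 and 2 ETS genes differed. The first was 0 in the fit of 2 populations, 2 in DESeq2 and 0 to 1 without 1 library, the second 1 to 3 without 1 library, and the third 1 with no filter, 1 with the fixed replicate block, 4 in DESeq2 and 0 to 4 without 1 library. The fixed block ended the Elk3 call and no other member's call. Etv4 in RFP-only against GFP-only cells also lost its call with no filter (adjusted p = 0.0555), quantile normalization (0.0582) and a fit of 2 populations (0.0838). The sign turned for Ets2 in RFP-only against GFP-only cells under quantile normalization (0.01) and without the litter 1 GFP-only library (0.09). It also turned for Etv5 without the litter 5 GFP-only library (-0.15) and Ets1 without the litter 5 DP library (-0.12), both in DP against GFP-only cells. Without 1 library these ranged from -0.31 to 0.09, -0.15 to 0.61 and -0.12 to 0.30 in that order. None of these was called, and the cause was not tested. Among the members' values under all alternatives, 404 kept direction and call, 37 lost a call, 11 gained one and 4 turned. With 3 libraries a population no single-value permutation test can go under 0.1.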

Other observations

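The order of litters for the 8 tested ETS genes differed between populations. Among GFP-only libraries, that of litter 5 was lowest for 6 of them and highest for 1 (Ets1), and that of litter 1 was highest for 6. Among DP libraries the order ran otherwise, with litter 5 highest for 5 genes and litter 2 lowest for 5.

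Markers of further cell types were counted beside all tested genes, of which 11.8% were higher and 8.48% lower in RFP-only cells relative to GFP-only cells, and 1.05% lower in DP against RFP-only cells. Of 10 skeletal muscle markers tested, 9 were higher in RFP-only cells than in GFP-only cells and 6 lower in DP cells than in RFP-only cells, with sums of 765 to 2252 normalized counts in GFP-only, 870 to 2929 in DP and 7883 to 31764 in RFP-only libraries. All 11 pericyte and smooth muscle markers differed in RFP-only against GFP-only cells, 10 higher and 1 lower. Of 13 Schwann cell and neuron markers, 5 rose and 2 fell in that comparison, of 8 epidermal markers 1 rose and 1 fell, and of 9 platelet and erythroid markers tested 2 rose and 1 fell. Their part in the levels of the ETS genes was not tested. Of 12 tested genes of maturing cartilage and bone, all 12 fell in RFP-only and 11 fell in DP against GFP-only cells, where 3.02% of all tested genes fell in DP cells.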
